A study of Mus musculus with 6 samples.

Results

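The most reproducible Ago footprints of these macrophages were the 369, of 6270 in all, that were found in each of 6 libraries. They were selected on the number of libraries that held a footprint, 3 of 3 from Apobec1-/- mice (KO) and 3 of 3 from wild-type littermates (WT). Ago proteins carry miRNAs, and a footprint is the short stretch of RNA around the peak of a cluster of reads cross-linked to Ago. The study compared where Ago sat on messenger RNAs with and without APOBEC1, an enzyme that edits C to U in 3′ UTRs. Both groups were bone marrow-derived macrophages of C57BL/6 mice aged 6 to 12 weeks, grown with M-CSF at 20 ng/mL and matured for 7 days, with no other treatment. They differed by the Apobec1 deletion alone as far as the labels say, and which part of the gene was removed is not given there. The deposited table holds 1 occupancy per footprint and genotype, a ratio of footprint signal to the RNA-Seq expression of the transcript. There are thus no values per library, no read depth and no SD, and no difference between KO and WT below carries a test. A difference between genotypes cannot be set against the spread between libraries.

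A miRNA in an Ago protein pairs with its target mostly through its seed, the bases from position 2 to position 8, and the usual target is a short complement of the seed in a 3′ UTR. Ago then recruits factors that shorten the poly(A) tail and repress translation. In macrophages, miRNAs such as miR-155, miR-146 and miR-223 are known for tuning inflammatory signalling and differentiation. In Ago HITS-CLIP, RNA is cross-linked to Ago, trimmed with RNase, joined to linkers and sequenced. The ends of a read thus depend on trimming and linker ligation as well as on Ago. A footprint here takes in 30 nt before and 32 nt after the peak. The shortest was 63 nt, a length shared by 93 of the most reproducible footprints. The ends of a footprint are thus placed relative to the peak and are not the ends of reads.

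Of the 369 footprints, 361 lay in an annotated 3′ UTR on the same strand. Another 3 lay in other exons, both Malat1 footprints and 1 of Ddx58, 1 lay in an intron of Prkcb, and 4 overlapped no gene on their strand. They fell on 278 genes, 12.5% of the 2225 genes with any footprint. The median length was 66 nt, against 72 nt in the other footprints, and 16 were 100 nt or longer, up to the 1092 nt of the cytolinker gene Plec. Only 2 pairs overlapped, on Ctsb by 38 nt and on Arhgdia by 34 nt.

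The macrophage label was checked on marker genes. Of 12 macrophage marker names, among which Emr1 and Adgre1 stand for the same gene, 7 had a footprint in the table. Among the 7 were Emr1 and Itgam, which encode F4/80 and CD11b. Cd68, Mertk, Mrc1 and Cd63 had no footprint. Csf1r, Sirpa and Lyz2 had one in all 6 libraries. None of 6 T and B cell, 5 neutrophil or 4 fibroblast markers had a footprint. A footprint shows only that Ago was bound to that RNA.

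The strongest of these footprints shared a sequence that the selection did not use. The 7 letters GTGTCAG stood near their 3′ ends, in the reference genome itself. The windows below are taken from the mm9 genome, 5′ to 3′ on the strand of the transcript, for 10 of the strongest footprints with this match, 1 per gene, with the 7 letters in capitals. They are shown for the bases on either side of the 7 letters. These bases vary, but the windows of Cyth1, Wee1, H6pd, Col4a3bp and Ankrd17 all continue with tc. Each window is centred on the match, so that the letters line up by construction.
C3ar1, chr6:122798668-122798697, minus strand: tcttacatgacaaaaGTGTCAGgcacactc
Cyth1, chr11:118025692-118025721, minus strand: ccagcacctggctcaGTGTCAGtctattta
past Wee1, chr7:117286048-117286077, plus strand: gcctccaatgtacctGTGTCAGtcttgcgt
H6pd, chr4:149354597-149354626, minus strand: ctcacagttacctatGTGTCAGtcacagag
Col4a3bp, chr13:97409765-97409794, plus strand: acctatccaatatcaGTGTCAGtcgctaca
Sbno1, chr5:124818870-124818899, minus strand: tcatgcaatacaagtGTGTCAGcttcactg
Lair1, chr7:3959116-3959145, minus strand: atggtcctgtgtacaGTGTCAGgcatgggt
Ankrd17, chr5:90657859-90657888, minus strand: aaagtaaatttcagtGTGTCAGtctagagg
Slc23a2, chr2:131879766-131879795, minus strand: tgagagcaagcatttGTGTCAGccacagga
Fndc3b, chr3:27317261-27317290, minus strand: tggctattctttgggGTGTCAGtgacgtga

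For comparison, these are the 3′ ends of the 5 strongest footprints without the match, 1 per gene. Capitals mark the last 20 bases of the footprint and small letters the 10 bases after it. That of B4galt5 holds a run that departs from the 7 letters by 1 substitution, and those of the other 4 hold none so close.
Malat1, chr19:5798423-5798452, minus strand: ACTTGTGCTTAAAATCATTAaattatacaa
Plau, chr14:21662370-21662399, plus strand: CTAAATGTCGGTTTCACTTTttatatagat
Itga5, chr15:103174714-103174743, minus strand: CCCCACCCACTGCCCCCACTgaccaaagtt
B4galt5, chr2:167126044-167126073, minus strand: CCCACGCAGTTGAGTGTCATcacccaagtc
Dusp1, chr17:26642673-26642702, minus strand: TCGGCACTGACAGACAAAGCcagtgtaggt

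GTGTCAG was searched in the 50 nt from 30 nt before to 20 nt after the 3′ end of each footprint, on the strand of the transcript. It was present in 64 of the 369, 17.3% (95% Wilson interval 13.8% to 21.5%), against 247 of the 5901 other footprints, 4.19% (3.70% to 4.73%). In the matching 50 nt at the 5′ end it was present in 0 of the 369, which allows up to 1.03%, and in 0.220% of the others. Windows of the footprint's own length, 50 nt away on both sides, held it in 2 of 738 cases, 0.271%. Its reverse complement stood at the 3′ end of 2 of the 369. It was the most frequent 7-letter run of the stretch, and those that followed, TGTCAGT in 32 footprints, TGTGTCA in 31 and AGTGTCA in 29, overlap it. Runs that depart from it by 1 substitution stood at the 3′ end of 59 of the 369 and at the 5′ end of 24. Intervals cover counting error only, and footprints of 1 gene are not independent.

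The match had a preferred place near the 3′ end. Within the stretch searched, starts ran from 30 nt before the end, which is the limit of the search, to 8 nt after it. Of the matches, 47 began in the last 10 nt of the footprint and 11 in the 10 nt before these, while no other bin of 10 nt within 100 nt of the 3′ end held more than 5 matches. Its median start was 8 nt before the end. This end is that of the footprint, placed relative to the peak, and not the end of a read. In 26 of the 64 footprints the match reached past the end, and in 5 it began there. After the 7 letters the next base was T in 29 of 67 matches and C in 22, A in 7 and G in 9, and the base after such a T was C in 15 of the 29. In the other footprints, where 249 matches were found, the next base was T in 82, A in 67, G in 53 and C in 47.

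**Figure D1:**
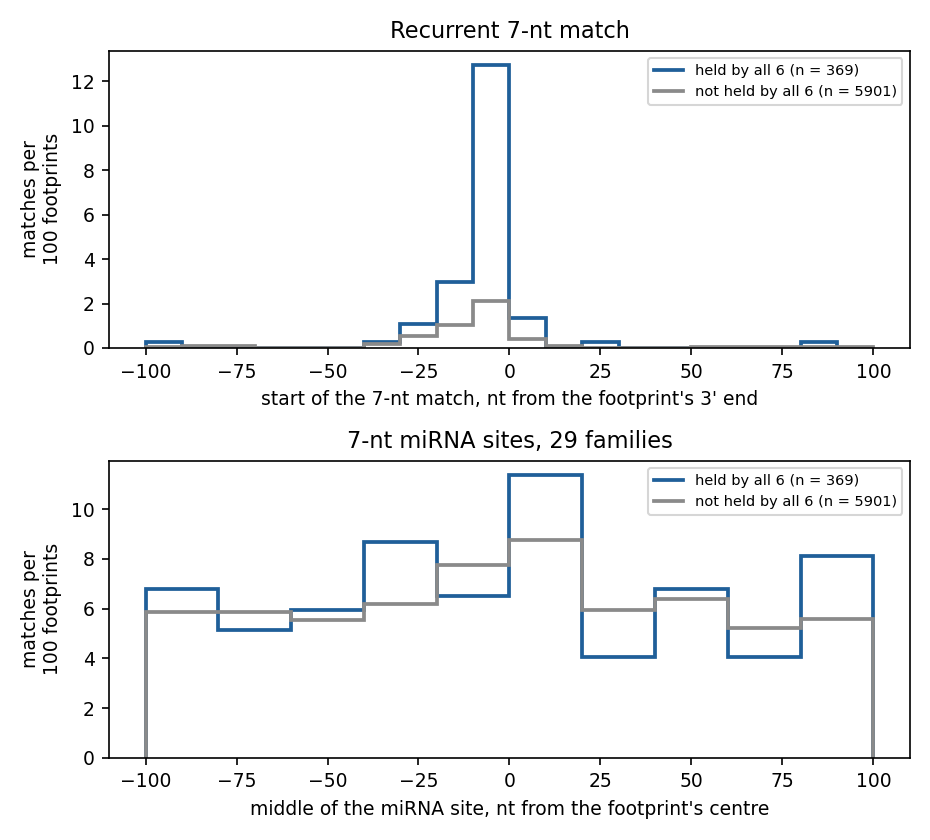
Matches per 100 footprints by position, for footprints held by all 6 libraries (blue) and the others (grey): above, the start of the 7-letter match relative to the footprint's 3′ end in bins of 10 nt, and below, the middle of miRNA sites of 29 families relative to the footprint's centre in bins of 20 nt. The upper panel has 1 peak in the last 10 nt, 12.7 matches per 100 footprints in the blue set and 2.14 in the grey, and the lower panel is highest in the 20 nt after the centre, at 11.4 and 8.74.

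The share of footprints with the match was larger where more libraries held the footprint. It was 2.52% of the 1665 footprints held by 2 libraries, 3.10% of the 2193 held by 3, 5.29% of the 1343 held by 4, 9.43% of the 700 held by 5 and 17.3% of those held by all 6. The share at 5 libraries joins 13.8% of the 399 missing from 1 WT library and 3.65% of the 301 missing from 1 KO library. The latter lies below the share at 4 libraries. The share was also larger at higher occupancy. Among the 369 it was 1.45% (1 of 69) below a mean occupancy of 0.25 and 42.6% (26 of 61) at 4 or above. Outside the set it was 1.48% of 1819 footprints below 0.25 and 38.7% (12 of 31) at 4 or above, so a large share at high occupancy was not particular to the set. Between 1 and 2 it was 18.6% of 59 in the set and 8.56% of 783 outside it, and in the other 5 ranges of occupancy the intervals of the set and of the others overlapped. Of the 10 footprints with the highest mean occupancy 7 had the match, of the top 50 it was 23, and of the lowest 100 of the 369 it was 5.

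**Figure D2:**
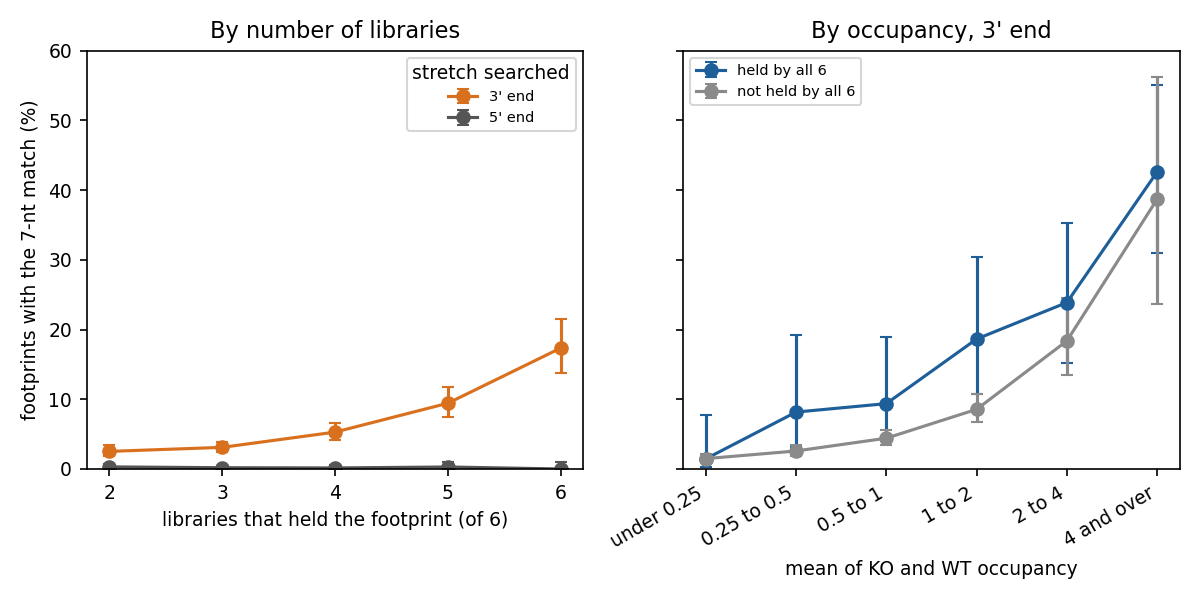
Percentage of footprints with the 7-letter match, with 95% Wilson intervals as bars: left, by the number of libraries that held the footprint, at the 3′ end (orange) and the 5′ end (grey), and right, by the mean of KO and WT occupancy, for footprints held by all 6 libraries (blue) and the others (grey). The share at the 3′ end climbs to 17.3% in footprints held by all 6 libraries while that at the 5′ end stays at or below 0.300%, and both curves on the right reach about the same share at an occupancy of 4 or above, 42.6% and 38.7%.

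As background, the 3′ linker of the widely used HITS-CLIP protocol begins with the same 7 letters in RNA form. The labels name a puromycin-blocked linker for these libraries, and its letters were not found in the labels. Its part in these footprints was not tested. Results on the 369 are therefore also given for the 305 without the match.

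With the match, the median occupancy was 2.82 in KO and 2.72 in WT over 64 footprints. Without it, it was 0.877 in KO and 0.803 in WT over 305. The log2 ratio of KO to WT had a median of 0.06 (95% interval by order statistics -0.22 to 0.25) with the match and 0.14 (0.03 to 0.18) without it. Median occupancy was more than 3 times as high with the match in both genotypes, while the intervals of the ratio overlapped. A 7-nt miRNA site was present in 11 of the 64 (17.2%) and in 69 of the 305 (22.6%).

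Occupancy spanned more than 3 orders of magnitude in both genotypes. It had a median of 1.02 in KO, with quartiles of 0.359 and 2.66 and a range of 0.0155 to 46.3. In WT the median was 0.983, with quartiles of 0.352 and 2.57 and a range of 0.0116 to 35.5. In the other 5901 footprints the medians were 0.363 in KO and 0.394 in WT. The rule counts libraries, and a stronger footprint is more readily found in each, so this difference is a description.

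Just outside the rule stood footprints held by 5 libraries. The 399 missing from 1 WT library had a median occupancy of 0.913 in KO and 0.441 in WT, and the 301 missing from 1 KO library had 0.654 in KO and 0.956 in WT. The 7-letter match was present in 13.8% of the 399 and in 3.65% of the 301. The directions of occupancy follow in part from which library lacked the footprint, so they are given as description. The difference in the share with the match was not tested.

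The 4 strongest footprints all carried the 7-letter match. C3ar1, the receptor for the complement fragment C3a, had an occupancy of 46.3 in KO and 35.5 in WT. A second footprint of C3ar1, without the match, had 2.64 in KO and 2.75 in WT. Cyth1, an exchange factor for ARF GTPases, had 45.8 in KO and 24.1 in WT at its single footprint. The footprint 382 nt past the end of Wee1 (chr7:117286008-117286072) had 28.2 in KO and 27.9 in WT. Among the 20 strongest, 1 per gene, 13 had the match and 5 had a miRNA site, and the genotypes lay within 2-fold of each other except at Malat1 and C230081A13Rik (11.8 in KO and 5.75 in WT).

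Strong footprints without the match included some with a miRNA site and some with none. Those of B4galt5, C230081A13Rik and Aebp2 had neither. In the set a site was present in 24.6% of footprints at a mean occupancy of 4 or above and in 24.6% of those below 0.25. Plau, which encodes the urokinase plasminogen activator, had both of its footprints in the set. The one with a miR-181 site (chr14:21662323-21662389) had 27.9 in KO and 13.98 in WT. Its other one (chr14:21661758-21661825), with no site, had 16.02 in KO and 7.11 in WT. Itga5, the α subunit of a fibronectin receptor, had 18.4 in KO and 16.4 in WT at a footprint with sites of miR-25/32/92 and miR-34 that ends near the end of its 3′ UTR. Dusp1, a phosphatase that shuts off MAP kinases, had 6.82 in KO and 12.9 in WT at a footprint with a miR-101 site. Malat1, a nuclear long non-coding RNA, had 13.1 in KO and 29.9 in WT, while 0.842 in KO and 1.58 in WT were measured at its second footprint, so both stood lower in KO.

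**Figure D3:**
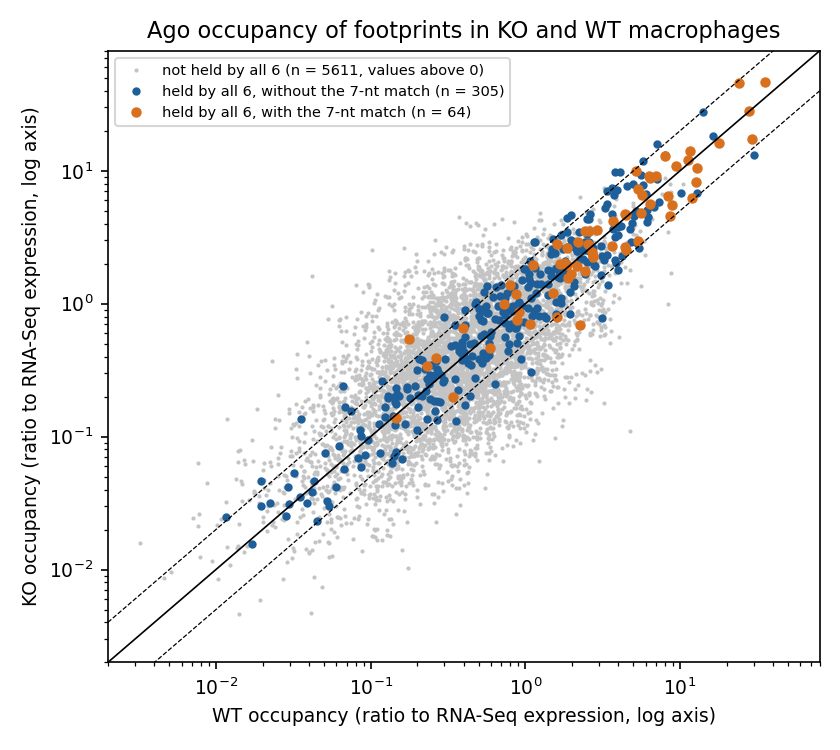
Occupancy in KO (vertical) against WT (horizontal), both on log axes, for footprints held by all 6 libraries with the 7-letter match (orange, 64) and without it (blue, 305), and for other footprints above 0 in both genotypes (grey). The solid line marks equal values and the dashed lines 2-fold differences, and the orange points gather at the upper end of the blue cloud, with a median of 2.82 in KO and 2.72 in WT.

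Between genotypes the set leaned slightly to KO. The log2 ratio of KO to WT had a median of 0.13 (0.03 to 0.18) and quartiles of -0.34 and 0.52, and 210 of the 369 were higher in KO. Over the whole table the median was -0.04. A ratio of at least 2-fold was reached by 25 of the 369 in the direction of KO, where 18.9% of all 6270 footprints reached it, and by 16 in the direction of WT, where 24.2% did. Nothing is read from these shares, since the rule counts libraries of both genotypes and so leaves out footprints that are low in either.

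The highest ratios were those of Apoe and Sdc3, at low occupancy. Apoe, the apolipoprotein that carries cholesterol out of macrophages, had 0.135 in KO and 0.0355 in WT at its single footprint. The log2 ratio was 1.88. Sdc3, a heparan sulfate proteoglycan, had 3 of its 8 footprints in the set, each higher in KO, and the one at the far end of its 3′ UTR (chr4:130381878-130381948) had 0.240 in KO and 0.0661 in WT. Txnip, an inhibitor of thioredoxin and of glucose uptake, had 0.543 in KO and 0.177 in WT, at a footprint with both the 7-letter match and sites of the miR-17 family and miR-128. Iqgap1, a scaffold of the actin cortex, had 0.798 in KO and 0.296 in WT at 1 of its 3 footprints in the set, and the other 2 had log2 ratios of 0.14 and 0.29.

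Igf1 and Ccnd1 were the strongest RNAs among the 10 highest ratios. Igf1, the insulin-like growth factor, had 3 of its 13 footprints in the set. It had 9.74 in KO and 3.80 in WT at a footprint with a miR-155 site (chr10:87397185-87397249). Its footprint with a miR-15/16 site had 0.565 in KO and 0.409 in WT. The remaining one of the 3 had 3.20 in KO and 3.82 in WT. Ccnd1, which encodes the G1 cyclin D1, had 9.83 in KO and 4.10 in WT at the strongest of its 4 in the set. The others of the 10 were Cdk14, BC006779, the Fc receptor γ chain gene Fcer1g and Tor1aip1, with log2 ratios from 1.24 to 1.34.

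The lowest ratios were led by Zfp207, Mbnl1 and Stk4. Zfp207, which encodes a zinc finger protein of the spindle, had 0.786 in KO and 3.14 in WT, where the log2 ratio was -1.99. Mbnl1, a splicing regulator, had 0.304 in KO and 1.09 in WT at 1 of its 3 footprints in the set, while another of these had 0.889 in KO and 0.549 in WT. Stk4, a kinase of the Hippo pathway, had 0.691 in KO and 2.27 in WT, at a footprint with the 7-letter match. Rhob, a GTPase of endosomes, had 1.39 in KO and 3.41 in WT, and Klf6, a transcription factor, had 0.841 in KO and 1.95 in WT. Slco4a1, Nckap1l, Pid1, Msn and Spp1 made up the 10, with log2 ratios from -1.44 to -1.21. None of the 10 held a miRNA site of the 29 families.

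G+C content moved with the ratio over the whole set and among the footprints without the 7-letter match. The median G+C content of the set was 47.1%, against 42.9% in the other footprints. It was 38.7% in footprints held by 2 libraries and 44.4% in those held by 4. In the 399 missing from 1 WT library it was 46.3%, and in the 301 missing from 1 KO library 44.1%. A high G+C content was thus not particular to the set. Split by G+C content into 5 groups, the 74 footprints with the lowest (up to 38.7%) differed from those with the highest. In the lowest group the median occupancy was 1.06 in KO and 1.52 in WT, with a median log2 ratio of -0.28 (-0.46 to -0.12) and 20 of 74 higher in KO. In the highest group (from 54.5%) it was 0.725 in KO and 0.562 in WT, with a median of 0.47 (0.27 to 0.53) and 54 of 74 higher in KO. Among the 305 without the match the medians of the lowest and highest groups were -0.33 and 0.47. The 64 with the match were split into only 2 groups, which meet at 47.7% G+C. The median was 0.04 (-0.30 to 0.21) in the lower 32 and 0.17 (-0.25 to 0.48) in the higher 32, with 17 higher in KO in each. This split is coarser and the footprints fewer, so these medians cannot be set against those of the 5 groups. The 10 highest ratios above had a median G+C content of 54.0%, and the 10 lowest 40.0%. The part of base composition in the ratios of single genes was not tested.

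**Figure D4:**
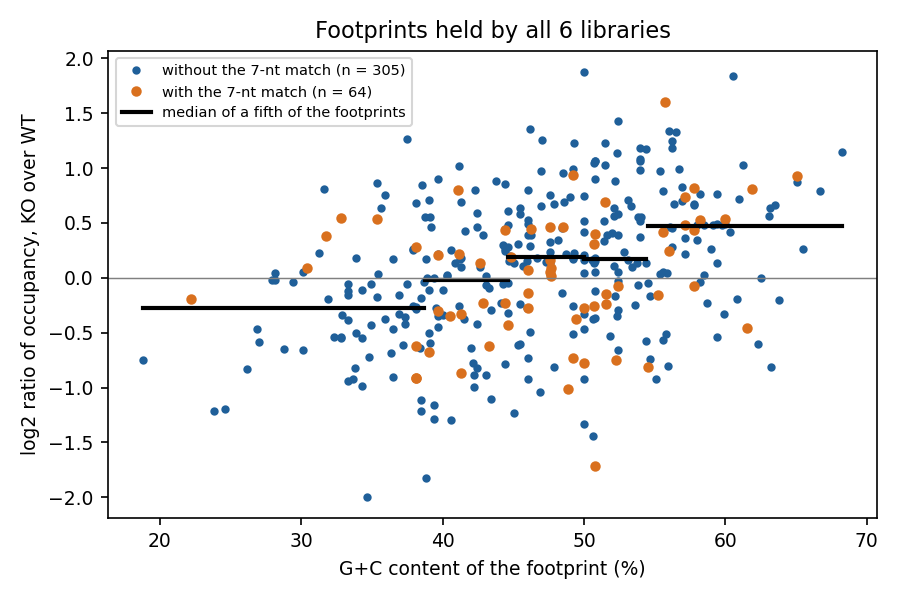
Log2 ratio of KO to WT occupancy against the G+C content of the footprint, for the 369 footprints with the 7-letter match (orange, 64) and without it (blue, 305), with black lines for the median of each of 5 groups by G+C content. The group median is -0.28 at the lowest G+C content and 0.47 at the highest, within a wide scatter of single footprints.

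Genes were grouped by lists of pathways, and from here on a count of a gene's footprints is of those held by all 6 libraries. For each list, the shares to read beside are 12.5% of all genes with a footprint in the set and 56.9% of the set higher in KO. Of 72 listed receptor and surface protein genes with any footprint, 19 had one in all 6 libraries, 29 footprints in all, of which 23 were higher in KO, with a median log2 ratio of 0.38 beside 0.13 for the whole set. Tnfrsf1a, the main TNF receptor, had 1.82 in KO and 1.01 in WT. Cx3cr1, the fractalkine receptor, had 1.14 in KO and 0.681 in WT. Nrp2, a semaphorin receptor, had 1.37 and 1.20 in KO and 0.845 and 0.761 in WT at 2 footprints. Plxna1, which pairs with neuropilins, had 3.50 in KO and 2.43 in WT. The adaptor Tyrobp had 0.0754 in KO and 0.0509 in WT. Lower in KO stood Sirpa, the receptor for CD47, with 0.274 in KO and 0.474 in WT at a footprint with a miR-23 site. Csf1r, the receptor for the growth factor in the medium, had 0.292 in KO and 0.259 in WT. Without the 4 footprints that held the 7-letter match the median was 0.25.

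Integrins and adhesion genes had the largest share of any list, 11 of 24 genes with a footprint, beside 12.5% of all genes with one. By footprints the share was 16 of 115 (13.9%), beside 28 of 204 (13.7%) for the actin list and 369 of 6270 over all footprints. The lists were chosen with earlier results of these data known, so nothing is read from this rank. The 16 footprints on integrin and adhesion genes had a median log2 ratio of 0.39, with 12 higher in KO. Icam1, the ligand of leukocyte integrins, had 0.993 in KO and 0.475 in WT. Itgb1, the β1 integrin, had 0.846 in KO and 0.565 in WT. Itgav, the αv integrin, had 3 footprints, and the strongest, with sites of miR-19, miR-21 and miR-142-3p, had 5.34 in KO and 6.81 in WT. Tln1, which links integrins to actin, had 1.03 in KO and 1.58 in WT, and Spp1, the integrin ligand osteopontin, had 0.0675 in KO and 0.158 in WT.

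Genes of the actin cytoskeleton and its regulators split evenly, with 14 of 28 footprints higher in KO and a median of 0.07, on 18 of 60 genes. Without the 3 that held the 7-letter match the median was 0.14. Arhgdia had 4 of its 6 footprints in the set, each higher in KO, with log2 ratios of 0.42 to 1.15. Elmo1, which activates Rac with DOCK proteins, had 1.34 in KO and 0.642 in WT at a footprint with sites of miR-27, miR-128 and miR-148. Dock2, an exchange factor for Rac in leukocytes, had 4.79 in KO and 5.61 in WT. Actb had 3 footprints, and the strongest had 0.915 in KO and 0.499 in WT. Nckap1l, a WAVE complex subunit of blood cells, had 0.251 in KO and 0.635 in WT, and Msn, the membrane linker moesin, had 0.173 in KO and 0.409 in WT.

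Endosome, lysosome and vesicle genes gave 28 footprints on 18 of 70 genes, 18 of them higher in KO, with a median of 0.12 and the 7-letter match in 7. Ctsb, which encodes the protease cathepsin B, had 5 footprints. The overlapping pair near the end of its 3′ UTR had 1.96 and 1.83 in KO and 1.87 and 1.76 in WT, and the other 3 were at or below 0.100 in KO and 0.0861 in WT. Plekhm3 had 4, between 1.64 and 7.46 in KO and between 1.86 and 3.62 in WT. Vamp3, a SNARE of recycling endosomes, had 0.912 in KO and 0.522 in WT. Of the other cathepsins, Ctsl had 0.112 in KO and 0.200 in WT, Ctss 0.0759 in KO and 0.115 in WT, and Ctsd 0.0298 in KO and 0.0196 in WT.

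Lipid genes gave 14 footprints on 8 of 33 genes, with 8 higher in KO and a median of 0.06. Without the 3 that held the 7-letter match the median was 0.25. Osbpl8, which carries phosphatidylserine and sterols between membranes, had 5, between 1.77 and 5.67 in KO and between 1.46 and 3.37 in WT, none with the match or a miRNA site. Soat1, which esterifies cholesterol, had 6.63 in KO and 3.74 in WT at one footprint and 0.794 in KO and 1.60 in WT at the other. Lpl, lipoprotein lipase, had 0.443 and 0.236 in KO and 0.372 and 0.171 in WT. Col4a3bp, the ceramide transfer protein gene, had 16.2 in KO and 17.8 in WT, and H6pd, an enzyme that makes NADPH in the endoplasmic reticulum, had 17.4 in KO and 29.2 in WT, both with the match.

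Of the 18 footprints on solute carrier genes, 7 held the 7-letter match. The 18 lay on 13 of 44 genes, 8 were higher in KO, and the median was -0.22 (-0.36 without the match). Of the 7 with the match, 5 are given here, the vitamin C transporter Slc23a2 (13.0 in KO and 8.05 in WT), the phosphate transporter Slc20a1 (9.14 in KO and 6.95 in WT), the amino acid transporters Slc16a10 (9.15 in KO and 6.31 in WT) and Slc38a1 (8.86 in KO and 6.41 in WT), and Slc38a2 (2.70 in KO and 3.64 in WT). Slc6a6, the taurine transporter, had 4 footprints without it, at or below 0.387 in KO and 0.501 in WT.

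Of all 6270 footprints, 48.7% were higher in KO, and of the 369 in the set 56.9% were. Of 18 footprints on 13 of 58 genes for RNA binding and splicing, 6 were higher in KO, with a median of -0.34. Qk, a regulator of splicing and RNA stability, had 6.29 in KO and 11.9 in WT at a footprint with the match and 1.87 in KO and 1.59 in WT at one without. Hnrnpu had 5.55 in KO and 8.88 in WT at a footprint with the match. Zfp36, which destabilises RNAs with AU-rich elements, had 1.22 and 0.899 in KO and 0.537 and 0.767 in WT.

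Of 11 footprints on 8 of 78 chromatin and transcription genes, 5 were higher in KO, with a median of -0.27. Fos, an immediate early factor, had 2.87 in KO and 5.30 in WT at a miR-221 site and 1.78 in KO and 3.98 in WT at a miR-181 site. Its partner Jun had 3.26 in KO and 3.98 in WT. Runx1, a factor of blood cell development, had 3.29 in KO and 1.70 in WT. Zeb2, a factor of macrophage identity, had 9.96 in KO and 5.20 in WT at a footprint with a miR-19 site and the match, and 4.06 in KO and 4.88 in WT at another. The median G+C content was 39.5% in the RNA-binding and 39.4% in the chromatin list, below the 47.1% of the set. It was 50.7% in the solute carrier list, whose median log2 ratio was -0.22. The receptor and integrin lists, with median ratios of 0.38 and 0.39, had 47.1% and 46.8%. Over all footprints of these lists, in the set or not, the median ratio was 0.29 for receptors and 0.17 for integrins. It was -0.27 for RNA binding, -0.21 for chromatin and -0.28 for solute carriers. The part of base composition in the list medians was not tested.

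**Figure D5:**
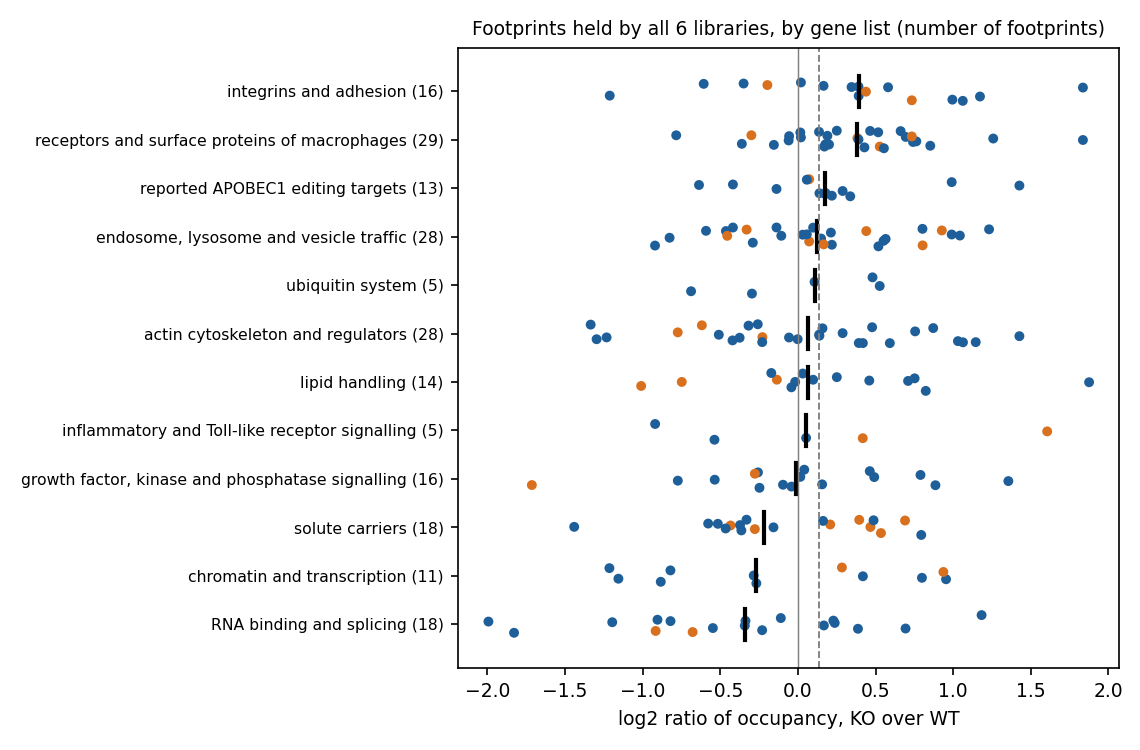
Log2 ratio of KO to WT occupancy for the footprints held by all 6 libraries on genes of 12 lists, with footprints that hold the 7-letter match in orange, the others in blue, the list median as a black bar and the median of the whole set, 0.13, as a dashed line. The list medians run from 0.39 for integrins and adhesion to -0.34 for RNA binding and splicing, and every list has footprints on both sides of 0.

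The remaining pathways are read beside the 12.5% of all genes with a footprint that had one in the set. Of 13 genes of the miRNA machinery with a footprint, 0 had one in all 6 libraries. The ubiquitin system had 3 of 63 genes, among them the interferon-induced ligase Trim25, whose 3 footprints were each higher in KO, and the ligase gene Mdm2, whose footprint was lower. Inflammatory signalling had 5 of 37, with 3 of 5 footprints higher in KO and a median of 0.05, which was -0.54 without the 2 that held the 7-letter match. It included the chemokine Ccl3 at 2.53 in KO and 2.44 in WT and the interferon-induced chemokine Cxcl10 at 1.93 in KO and 2.80 in WT. Growth factor and kinase signalling had 10 of 67, with 8 of 16 footprints higher in KO and a median of -0.01. Rasa1, which switches off Ras, had 7.22 in KO and 3.91 in WT at a footprint with sites of the miR-17 family and miR-24. Arrb1, the arrestin β1 gene, had 4 footprints, between 0.360 and 0.962 in KO and between 0.388 and 0.673 in WT.

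Transcripts named as APOBEC1 editing targets in earlier work were listed from memory, and whether they are edited in these cells was not checked. Of 26 such genes with a footprint, 7 had one in all 6 libraries, and 10 of their 13 footprints were higher in KO, with a median log2 ratio of 0.18. B2m, a subunit of MHC class I molecules, had 0.141 in KO and 0.125 in WT. App, the amyloid precursor gene, had 0.949 in KO and 0.839 in WT. Anxa5, which binds phosphatidylserine, had 0.181 in KO and 0.282 in WT. Editing by APOBEC1 needs a downstream mooring sequence, of which TGAT is a part. A C between A or T with TGAT starting 2 to 8 nt after it was present in 35 of the 369, 9.49%, against 13.1% of the other footprints and 11.7% of the windows 50 nt away. These 35 had a median log2 ratio of -0.00, beside 0.14 for the rest, and 17 were higher in KO. Their median G+C content was 39.7%, beside 47.7%.

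Where 1 RNA carried several of these footprints, the ratio varied from one footprint to the next. In 59 genes with at least 2, the footprints lay on 1 side of equality in 28, 16 with each footprint higher in KO and 12 with each lower. The range of log2 ratios within a gene had a median of 0.67 and reached 2.52 in Mbnl1. Footprints of a gene share its RNA-Seq value if the authors divided by 1 value per gene, which the sources used here do not say. Of 230 genes with a footprint of this kind and at least 1 more of any kind, the gene's strongest footprint was in the set in 175.

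Further genes had 3 footprints in the set. Cd93, a receptor of phagocytes, had 3, between 0.405 and 0.956 in KO and between 0.451 and 0.743 in WT. Rab8b, a GTPase of vesicle traffic, had 3, between 0.482 and 2.01 in KO and between 0.329 and 1.79 in WT. Oas2, an interferon-induced enzyme, had 3, between 0.705 and 0.890 in KO and between 0.532 and 0.809 in WT. Cdk18, a kinase, had 3, between 0.505 and 1.79 in KO and between 0.580 and 1.39 in WT, and Plekho2 had 3, all higher in KO.

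Sites of miRNAs were sought as exact complements of bases 2 to 8, for 29 families whose mature sequences RefSeq gives (GRCm38.p6). The mature miRNAs of the 8 families with a site in at least 5 of the 369 are shown with the seed in capitals, each followed by the strongest footprint with its site (mm9, strand of the transcript), with the site in capitals.
miR-15a-5p: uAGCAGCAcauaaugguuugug
Rbpj, chr5:54046604-54046633, plus strand: ctttccagcgtTGCTGCTttcactcgctgt
miR-27a-3p: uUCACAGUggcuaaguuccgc
Sgk3, chr1:9890128-9890157, plus strand: tcgtccagaaaACTGTGAaattacgtgtca
miR-128-3p: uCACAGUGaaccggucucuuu
Plagl2, chr2:153054778-153054807, minus strand: acttttcctgtCACTGTGaactttgctggt
miR-25-3p: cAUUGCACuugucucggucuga
Itga5, chr15:103174735-103174764, minus strand: ctctgttgcaaGTGCAATaaaccccaccca
miR-19a-3p: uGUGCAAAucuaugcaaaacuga
Zeb2, chr2:44843306-44843335, minus strand: cgagggttaccTTTGCACcagcttcagtgt
miR-23a-3p: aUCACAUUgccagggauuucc
Stx12, chr4:132410056-132410085, minus strand: tgttctacactAATGTGAccagcagagaaa
miR-148a-3p: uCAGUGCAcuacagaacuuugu
Elmo1, chr13:20697864-20697893, plus strand: tgttccttgtcTGCACTGtgaccatgacca
miR-181a-5p: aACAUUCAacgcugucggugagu
Plau, chr14:21662322-21662351, plus strand: gatgctccacgTGAATGTatcattcccggg

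A site of any of the 29 families was present in 80 of the 369 footprints, 21.7% (17.8% to 26.2%). It was present in 21.6% of the other footprints, in 17.5% (14.9% to 20.4%) of windows of the same length 50 nt to either side, and in 18.4% of such windows beside the others. The intervals of the set and of its own windows overlap. By the number of libraries it was 20.0% of the footprints held by 2, 24.3% of those held by 4 and 21.7% of those held by all 6. The other 289 had a site of none of the families, and 15 had sites of 2 or 3. Seeds that share letters give shared sites, and 4 of the sites of miR-27 and miR-128 fell on the same footprints, those of Plagl2, Znrf2, Rap1b and Elmo1. The plot of positions shows the sites most often in the 20 nt after the centre, at 11.4 per 100 footprints, beside 6.50 in the 20 nt before it.

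The miR-15/16 family had the most sites, in 12 of the 369 (3.25%), against 1.91% of the other footprints and 10 of the 738 windows (1.36%). Of the 12, 11 were higher in KO, beside 56.9% of the 369, and the median log2 ratio was 0.59. Rbpj, the DNA-binding partner of Notch, had 3.45 in KO and 1.87 in WT. Igf2r, the receptor that sorts lysosomal enzymes, had 0.870 in KO and 0.714 in WT. None of the 12 held the 7-letter match, and the others of the 12 had occupancies at or below 0.811 in KO and 0.499 in WT. The Il10ra footprint with this site, on the RNA of an interleukin-10 receptor chain, had 0.486 in KO and 0.352 in WT. The G+C content was 52.2% at Rbpj, 44.6% at Igf2r and 56.1% at Il10ra, beside a median of 47.1% for the set. The part of base composition in the ratios of this family was not tested.

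The miR-27 family had sites in 11 (2.98%, against 1.51% of the other footprints and 0.813% of the windows), with 7 higher in KO and a median of 0.34. Sgk3, a kinase of the phosphoinositide 3-kinase pathway, had 4.59 in KO and 8.66 in WT at a footprint that also holds the 7-letter match. Plagl2, a transcription factor, had 2.74 in KO and 2.01 in WT, and Znrf2, a ubiquitin ligase, had 2.66 in KO and 2.05 in WT. For miR-128, with 7 sites (1.90%, against 1.46% of the other footprints and 1.63% of the windows), 5 were higher in KO. Hip1, an endocytic adaptor gene, had 1.63 in KO and 1.47 in WT.

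The miR-25/32/92 and miR-19 families had sites in 6 each (1.63%). The shares in the other footprints were 0.729% and 0.966%, and in the windows 0.407% for both. Of the miR-25/32/92 footprints 3 were higher in KO, with Necap1, an adaptor of clathrin coats, at 3.62 in KO and 3.67 in WT. Of the miR-19 footprints 4 were higher in KO and 3 held the 7-letter match. Stx12, a SNARE of endosomes, had sites of miR-19 and miR-23 and 2.65 in KO and 1.85 in WT. Rap2b, a small GTPase with a miR-23 site, had 2.18 in KO and 2.24 in WT. Of 5 footprints each (1.36%), miR-23 had 3, miR-148 3 and miR-181 4 higher in KO. Sites of these families were present in 1.53%, 1.17% and 1.17% of the other footprints and in 0.813%, 0.407% and 1.76% of the windows.

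Families well known in macrophages had sites in 2 to 4 of the 369. miR-155 had 2 (0.542%, against 0.661% of the other footprints), in Igf1 and Tor1aip1, both among the 10 highest ratios. miR-223 had 4 (1.08%, against 0.644%), led by Mfhas1 with 4.73 in KO and 4.44 in WT, a footprint with the 7-letter match. miR-146 had 3 (0.813%, against 0.559%) and let-7 had 3 (0.813%, against 0.746%). Ehd1, a regulator of endosome recycling with sites of miR-21 and miR-26, had 4.74 in KO and 2.60 in WT.

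Footprints with any miRNA site had a median occupancy of 1.26 in KO and 0.784 in WT, with a median log2 ratio of 0.19 (0.03 to 0.45) and 50 of 80 higher in KO. Those without had 0.986 in KO and 1.04 in WT, with a median of 0.10 (-0.00 to 0.17). The intervals overlap. Without the 7-letter match the medians were 0.22 with a site and 0.11 without.

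Over the 347 whose centre lay in an annotated 3′ UTR, the median position was 0.416 of the way from the stop codon to the end (0.358 to 0.486), against 0.458 in the other footprints. The first, middle and last parts of 3 equal parts held 40.6%, 31.4% and 28.0% of them, and 37.3%, 32.0% and 30.7% of the others. Measured in the shortest overlapping 3′ UTR in place of the longest, the median position was 0.471 (0.416 to 0.530). The poly(A) signal AATAAA was present in 11 of the 369, 2.98%, against 7.25% of the other footprints and 4.74% of the windows 50 nt away. A run of 5 T was present in 7.05%, against 13.4% of the others and 20.1% of the windows. ATTTA, the core of AU-rich elements, was present in 10.3%, against 12.0% of the others and 9.89% of the windows. These motifs were searched on the transcript strand and are rich in A and T, and the set has the higher G+C content.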

How the data were processed

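Per the labels, Ago was immunoprecipitated with antibody 2A8 from 3 KO and 3 WT libraries. Per the submitters' processing notes, Bowtie 0.12.8 and bedtools were used with mm9. The authors' deposited occupancy is a ratio of footprint signal to RNA-Seq transcript expression, 1 value per genotype, and the number of libraries that held each footprint is given beside it. The labels do not say how libraries were combined.

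Footprints were placed on GENCODE vM1 genes (mm9, same strand, 3′ UTR first). Log2 ratios used a pseudocount of 0.00161, 50% of the smallest value above 0. Shares have Wilson intervals and medians order-statistic intervals at 95%. No test was run, since there are no replicate values. The counting was checked on simulated data. Python 3.11.15 with pandas 2.3.3, scipy 1.17.1 and pysam 0.24.0 was used. The members, gene lists, miRNA families and rules for naming were chosen with earlier results of these data known, and GTGTCAG after the sequences were seen. Named were the 20 strongest, the 10 highest and 10 lowest ratios, genes with at least 3 footprints, the 3 strongest per miRNA family with at least 5, footprints with sites of several families, and genes of the lists. Some footprints, genes and sequences are not reported here.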

Additional observations from a re-analysis of the deposited data

How the results depend on the processing

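No paired analysis was possible because the table holds 1 combined value per genotype, and for the same reason no library was left out in turn and no replicate block was fitted. Of 33 alternatives run over 8 results, 22 kept the value within its interval or the count within 1.5 times. The median log2 ratio ranged from 0.03 with a pseudocount of 1 to 0.14, always higher in KO. The count at least 2-fold higher in KO was 15 with a pseudocount of 0.1 and 3 with 1, and that at least 2-fold lower was 10 and 2. With ratios taken relative to the median of the set, 29 were lower in place of 16 and 17 higher in place of 25. The larger pseudocounts pull ratios of low footprints toward 0 by construction.

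The share with a miRNA site was 54.5% with 6-nt matches, 9.49% with 8-nt matches and 15.4% in the central 47 nt, as shorter matches and longer stretches find more by construction. 3 alternatives moved the share with GTGTCAG, all chosen after seeing the data: it was 10.6% inside the footprint alone, 22.3% with 1 footprint per gene and 22.4% among footprints whose mean occupancy reached the table's median. With the 64 footprints that hold it left out, each of the 6 results recomputed kept its value within these limits. The depth behind each occupancy is unknown, so no limit of detection is given.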
